A study of Mus musculus with 9 samples.

Results

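Dorsal root ganglia (DRG) of mouse embryos lacking a functional Meis2 gene in Isl1-expressing cells were compared with WT ganglia across all genes with enough reads. The members were chosen by depth: 13200 of the 55247 genes in the count table reached 100 counts in 1 or more of the study's 9 libraries. This rule also admits genes that are deep enough in 1 genotype only. Each of the 3 genotypes had 3 libraries, all from E18.5 embryos. In WT embryos both genes were intact. Isl1Cre/+ embryos had Cre recombinase knocked into 1 Isl1 copy, and Isl1Cre/+::Meis2LoxP/LoxP embryos, here the mutant, carried this allele together with 2 floxed Meis2 copies. The floxed strain had been backcrossed onto C57BL/6. The main comparison was mutant against WT (6 libraries), and the Isl1Cre/+ libraries show which differences were also seen with the Cre allele alone, which the mutant shares. The labels name neither litters nor pools of embryos, so p-values measure the spread between these libraries, and a whole ganglion holds glia, vessels and connective tissue beside its neurons.

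Meis2 is a TALE homeodomain transcription factor, of the family that binds DNA together with Pbx and Hox proteins. In the DRG it is known from the large neurons that sense light touch (low-threshold mechanoreceptors, LTMRs) and from proprioceptors, which report muscle stretch, whereas nociceptors and thermoreceptors signal harmful stimuli and temperature. Isl1 is a LIM homeodomain factor made by nearly all sensory neurons, so Cre from its locus acts in neurons of every sensory class and also in the other Isl1-expressing cells of the body. Satellite glia wrap the neuronal cell bodies and Schwann cells wrap their axons.

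Cre removes exon 8, the first exon that codes for the homeodomain. It lies on the reverse strand of chromosome 2 in GRCm38 at chr2:116000131-116000276, and 6 of 6 annotated coding transcripts hold it. Its 146 bases leave a remainder of 2 after division by 3, so its loss shifts the reading frame. The sequence is shown because it is the part of the gene that separates the genotypes, in lower case throughout, as the whole exon is removed, and 5′ to 3′ as in the GENCODE transcript Meis2-201.
Meis2 exon 8: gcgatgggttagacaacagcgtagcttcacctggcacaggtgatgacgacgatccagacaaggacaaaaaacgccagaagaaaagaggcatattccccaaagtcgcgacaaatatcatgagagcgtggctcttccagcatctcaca
Exon 8 makes up 1.21% of the 12043 exonic bases of the gene, so a count per gene measures Meis2 RNA as a whole and does not by itself test the deletion.

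Levels are CPM, a gene's share of a library's counts on a common scale, after TMM normalization of all 9 libraries, and differences are log2 fold changes of mutant over WT from an edgeR quasi-likelihood fit with its standard error (SE). A gene was called when its fold change was at least 1.2 and its unadjusted p was under 0.05, the criterion of the study. Rose and fell are used for called genes alone. A two-sided exact permutation test of 3 libraries against 3 cannot give a p under 0.1, so the edgeR p-values lean on the spread shared over all genes.

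The libraries held 23854607 to 29103444 counts. WT library 1 and mutant library 2 stood apart, with median rank correlations to the other 8 libraries of 0.981 and 0.979, while the remaining 7 had 0.991 to 0.995. WT library 1 had the highest summed level of 13 mitochondrial transcripts (91957 CPM, against 29152 to 73210 in the other WT and mutant libraries) and of 17 neurofilament and tubulin genes (32453 CPM, against 19718 to 25329). Mutant library 2 had the highest levels of skeletal muscle and red cell markers, given below. At least 100 counts summed over Y-linked genes were present in 2 of 3 WT, 1 of 3 mutant and 0 of 3 Isl1Cre/+ libraries, and the others held 0 or 1 such count, so male embryos were unevenly spread over the genotypes. All 17 general sensory neuron markers found in the table passed the depth filter, while 0 of 11 markers of spinal interneurons did, with at most 8.73 CPM summed over that list in any library.

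Meis2 fell in every mutant library. Its level was 109.9, 103 and 95.4 CPM in the WT libraries, 95.5, 102 and 89.5 CPM in Isl1Cre/+ and 40.7, 40.8 and 41.2 CPM in the mutant. The mutant libraries lay close together and far below both controls. The mutant level was 60.1% lower than in WT (log2 fold change -1.33, SE 0.0844, adjusted p = 0.00779 from edgeR), and Meis2 was the only gene with an adjusted p under 0.05, which is 0.00758% of the genes tested. In edgeR fits that left out WT library 2 or mutant library 1, 2 or 3 no gene passed, with an adjusted p for Meis2 of 0.0822, 0.145, 0.0699 and 0.195, while its unadjusted p stayed at 1.48e-05 or less. Every other called gene had an adjusted p of 0.99993, so the p-values below are unadjusted. Cells that do not express Isl1 keep an intact Meis2, and an RNA lacking exon 8 is still counted, so the remaining level cannot be assigned to either.

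Isl1 fell to a like extent with the Cre allele alone and in the mutant. Its level was 227, 273 and 284 CPM in WT, 165, 191 and 202 CPM in Isl1Cre/+ and 216, 169.5 and 178 CPM in mutant libraries. Every library with the Cre allele was below every WT library. The log2 fold change against WT was -0.48 in the mutant (SE 0.132, unadjusted p = 0.00756) and -0.48 in Isl1Cre/+ (SE 0.126, unadjusted p = 0.00593), with the same 3 WT libraries in both comparisons. Mutant and Isl1Cre/+ differed by 0.01 on this scale (SE 0.113). Both comparisons that involve WT thus set embryos with 2 intact Isl1 copies against embryos with 1.

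**Figure D1:**
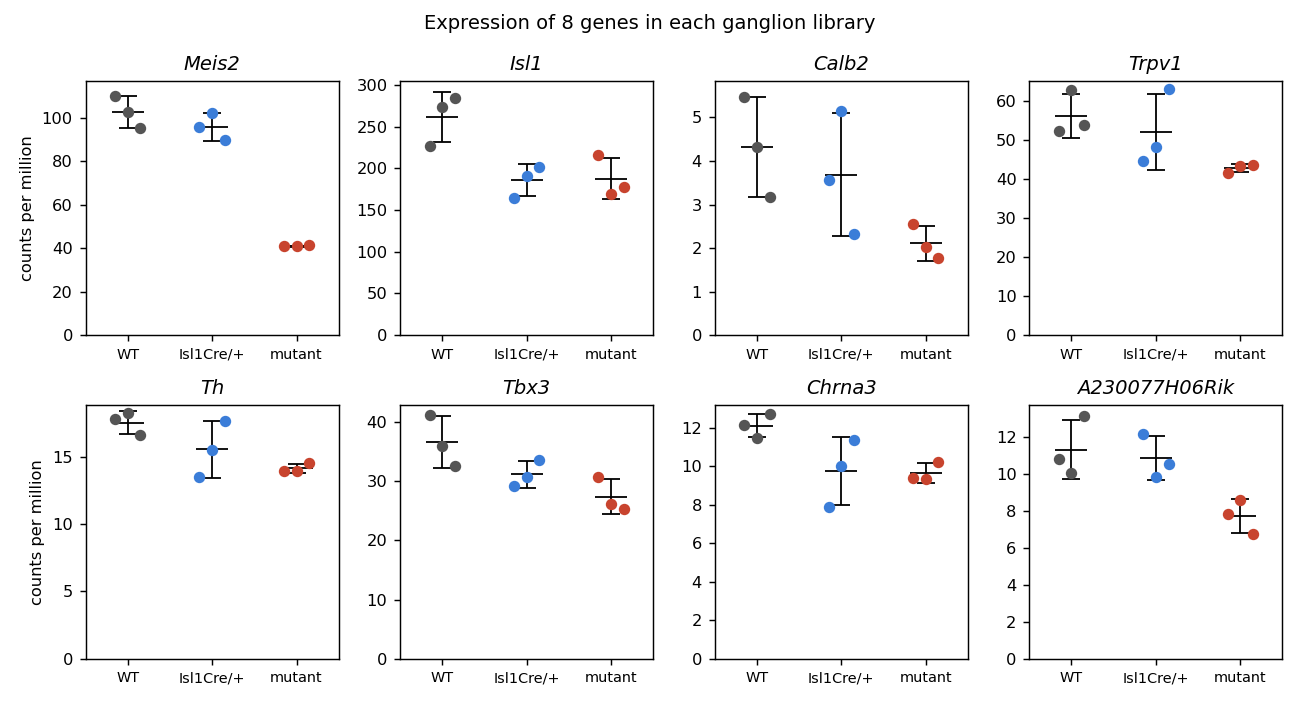
Level in CPM (vertical axes, from 0) of 8 called genes in each library of WT (grey), Isl1Cre/+ (blue) and mutant (red) ganglia, with the mean and SD of 3 libraries in black. Meis2 is low in the mutant alone (40.7 to 41.2 CPM), Isl1 is lower in both genotypes that carry the Cre allele, and for Calb2, Trpv1, Th and Chrna3 the Isl1Cre/+ libraries are spread more widely than the mutant libraries.

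Few genes were called. By the criterion above 42 genes were called, 0.318% of those tested, of which 34 fell (0.258% of genes tested) and 8 rose (0.0606%). Before the fold change was considered 49 genes (0.371%) had an unadjusted p under 0.05. That is below 0.05 of all genes, the share this threshold gives on average if no gene differs. A call alone is thus weak evidence of a difference, and only Meis2 passed adjustment. The median log2 fold change over all genes was -0.0094, and 53.8% of genes were lower in the mutant. For 40 of the 42 called genes the mutant libraries did not overlap the WT libraries, with Creg2 and Bhlhe41 the exceptions. Lack of overlap held for 364 genes or 2.76% of all genes tested. With 3 libraries a genotype, a share of about 0.1 would not overlap if no gene differed. The genes were called on these same libraries, so lack of overlap, here and below, adds no support to a call. Of the called genes 36 were protein-coding and 6 were noncoding transcripts or pseudogenes. In addition to Meis2, only Calb2 changed by 2-fold or more, and 7 of the 42 changed by 1.5-fold or more.

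The calls moved with single libraries. Leaving out 1 library at a time kept between 19 of the 42 calls (without WT library 3) and 25 (without WT library 1), and 8 genes kept theirs in all 6 such fits: Meis2, Calb2, Uts2b, A230077H06Rik, Isl1, Pcdh11x, Tbx3 and Trpv1. No called gene changed direction in any fit tried. Without WT library 1 a total of 132 genes were called (60 higher and 72 lower), without mutant library 2 it was 74 (7 higher and 67 lower), and without WT library 3 it was 67 (15 higher and 52 lower). Without mutant library 1 it was 120, and most of these were higher (80, against 40 lower). Without both WT library 1 and mutant library 2 it was 182 (69 higher and 113 lower), of which 23 were among the 42.

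**Figure D2:**
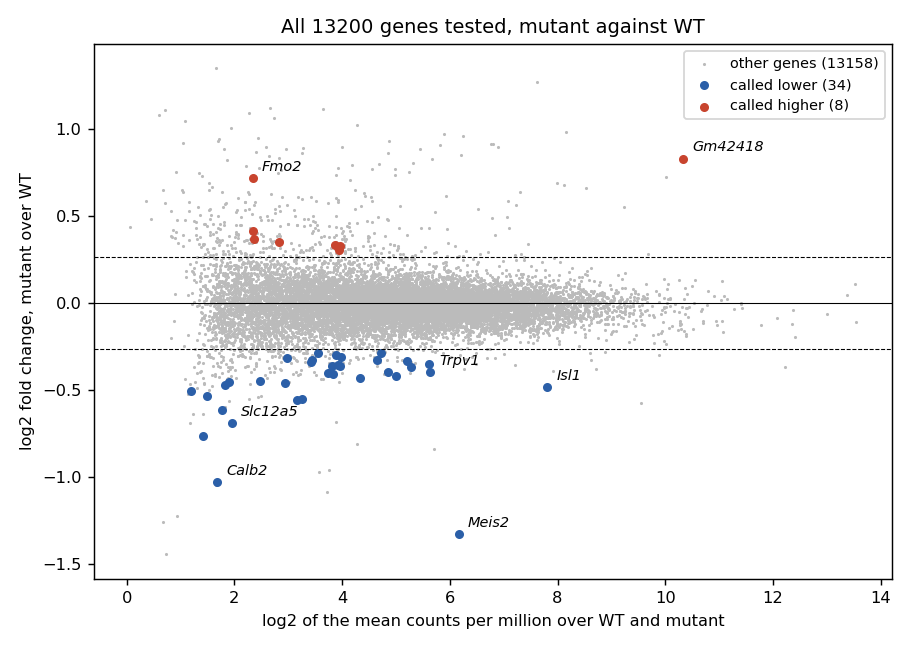
Log2 fold change of mutant over WT (vertical axis) against the log2 of the mean CPM over both genotypes (horizontal axis) for 13200 genes, with genes that fell in blue, genes that rose in red and dashed lines at a fold change of 1.2. Meis2 and Calb2 lie lowest among the called genes, and most called genes are of low to middle level.

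In the lists of sensory neuron classes, 1 of 25 A-beta LTMR, 1 of 9 C and A-delta LTMR and 2 of 18 proprioceptor markers fell. So did 1 of 13 peptidergic, 1 of 14 non-peptidergic and 0 of 4 cold markers. Of these markers 0 rose, while 0.258% of all genes tested fell and 0.0606% rose. These lists and those below were chosen with earlier results of these data known, so a share above that of all genes is no evidence of enrichment. Calb2 encodes calretinin, a calcium-binding protein of some LTMRs, and was at 5.46, 4.32 and 3.16 CPM in WT, 3.57, 5.15 and 2.33 CPM in Isl1Cre/+ and 2.56, 2.01 and 1.76 CPM in mutant libraries. All mutant libraries were below all WT libraries, but 1 Isl1Cre/+ library was within the mutant range (log2 fold change against WT -1.03, SE 0.269, unadjusted p = 0.00596). Without WT library 1, in which Calb2 was highest, the log2 fold change was -0.82.

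Trpv1, the receptor for capsaicin and noxious heat, was at 52.3, 62.7 and 53.7 CPM in WT and 41.5, 43.3 and 43.5 CPM in mutant libraries. This gene of peptidergic nociceptors thus fell by 23.9% (log2 fold change -0.39, SE 0.0954, unadjusted p = 0.00387) and kept its call in all 18 refits under the same call rule. The Isl1Cre/+ libraries, at 44.6, 48.3 and 62.9 CPM, spanned the range from just above the mutant to the highest WT library. Nts, the precursor of neurotensin and neuromedin N, was at 3.16, 3.22 and 3.61 CPM in WT and 1.99, 2.77 and 2.13 CPM in the mutant. Its log2 fold change of -0.53 (SE 0.215, unadjusted p = 0.0406) kept its call in 1 of 6 fits that each left out 1 library, with a highest p of 0.127 without WT library 3.

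Th encodes tyrosine hydroxylase, which marks C-fibre LTMRs in adult ganglia and also sympathetic neurons. Its level was 17.8, 18.2 and 16.6 CPM in WT and 13.9, 13.9 and 14.5 CPM in mutant libraries, without overlap (log2 fold change -0.31, SE 0.098, unadjusted p = 0.0145). Leaving out WT library 2 raised the p to 0.0601, and the other 5 fits that left out 1 library kept the call. Markers of sympathetic neurons varied between libraries: Dbh, which makes noradrenaline, was at 0.376, 4.88 and 1.46 CPM in WT and 0.376, 0.494 and 1.97 CPM in the mutant. All 4 tested genes of the sympathetic neuron list were lower in the mutant (median -0.269) and 1 of these, Chrna3, was called. Their part in the difference of Th was not tested.

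Whrn and Vstm2b, which stand in the list of proprioceptor markers, also fell. Whrn encodes whirlin, a scaffold protein of mechanosensory cells, with 17.5 ± 2.11 CPM (SD, n = 3) in WT and 13.6 ± 1.58 CPM (SD, n = 3) in the mutant (log2 fold change -0.36, SE 0.139, unadjusted p = 0.0334). Vstm2b, a membrane protein with an immunoglobulin domain, had 11.9 ± 1.27 CPM (SD, n = 3) in WT and 9.46 ± 0.545 CPM (SD, n = 3) in the mutant (log2 fold change -0.34, SE 0.127, unadjusted p = 0.0313). Each kept its call in 2 of 6 fits that left out 1 library, with highest p of 0.105 (Whrn, without mutant library 1) and 0.0985 (Vstm2b, without mutant library 3).

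Of 9 tested markers of C and A-delta LTMRs, 6 were lower and 3 higher, with a median of -0.113 and Th the 1 called, and the median was -0.036 without mutant library 2. Of 25 markers of A-beta LTMRs, 21 were lower in the mutant and 1, Calb2, was called, with a median log2 fold change of -0.073 against -0.0094 over all genes. The median was 0.004 without mutant library 2. Ntrk2, the BDNF receptor, was at 226, 208 and 207 CPM in WT and 209, 205 and 197 CPM in mutant libraries, and its 95% interval of the log2 fold change ran from -0.27 to 0.13. Ntrk3, the neurotrophin-3 receptor, was at 273, 262 and 296 CPM in WT and 326, 287 and 277 CPM in the mutant, with an interval from -0.14 to 0.34. Both intervals span 0, and differences within them could not be detected with 3 libraries a genotype.

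The interval was -0.32 to 0.20 for Ret, the GDNF family receptor of rapidly adapting LTMRs, and -0.37 to 0.28 for Piezo2, the channel that converts touch into current. Nefh, the heavy neurofilament of large neurons, had 1912, 1129.6 and 1236 CPM in WT and 1662, 1016 and 1115 CPM in the mutant, and an interval from -0.77 to 0.42, with library 1 the highest of each genotype. Cntnap2, Kcna2 and Kit, which complete the 8 most counted genes of this list, had log2 fold changes of -0.12, -0.01 and 0.03.

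Of 18 proprioceptor markers 10 were lower and 8 higher, with a median of -0.012. Pvalb, the calcium buffer parvalbumin that defines this class, was at 59.3, 44.0 and 47.9 CPM in WT and 56.4, 56.0 and 45.2 CPM in the mutant (interval -0.27 to 0.39). Etv1, a transcription factor required for proprioceptor connections, had a log2 fold change of -0.02 (SE 0.166). Cdh13, a cadherin without a transmembrane domain, had an edgeR p of 0.0402 at a log2 fold change of -0.25, short of the fold change required. The other genes among the 8 most counted, Fxyd7, Sema5a, Pou4f3 and Crtac1, lay between -0.15 and 0.00.

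Nociceptor and thermoreceptor markers held 2 called genes among 31, Trpv1 and Nts. Of 13 peptidergic markers 5 were lower and 8 higher (median 0.038), and of 14 non-peptidergic markers 9 were lower and 5 higher (median -0.011). The peptidergic median was -0.043 without mutant library 1 and 0.130 without mutant library 2. The non-peptidergic median was -0.118 without WT library 1 and 0.070 without mutant library 2. Calca, the precursor of CGRP, had a log2 fold change of 0.19 (SE 0.0912, unadjusted p = 0.0796), and Scn10a, Scn9a, Tac1, Adcyap1, Gal and Prdm12 lay between -0.07 and 0.11. Among non-peptidergic genes, Mrgprd, Mrgprx1, P2rx3, Scn11a, Cd55, Plxnc1, Gna14 and Gfra1 lay between -0.09 and 0.12. The 4 cold thermoreceptor markers, among them the cold channel Trpm8 at -0.02 (SE 0.206), held 0 called genes and 2 in each direction.

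**Figure D3:**
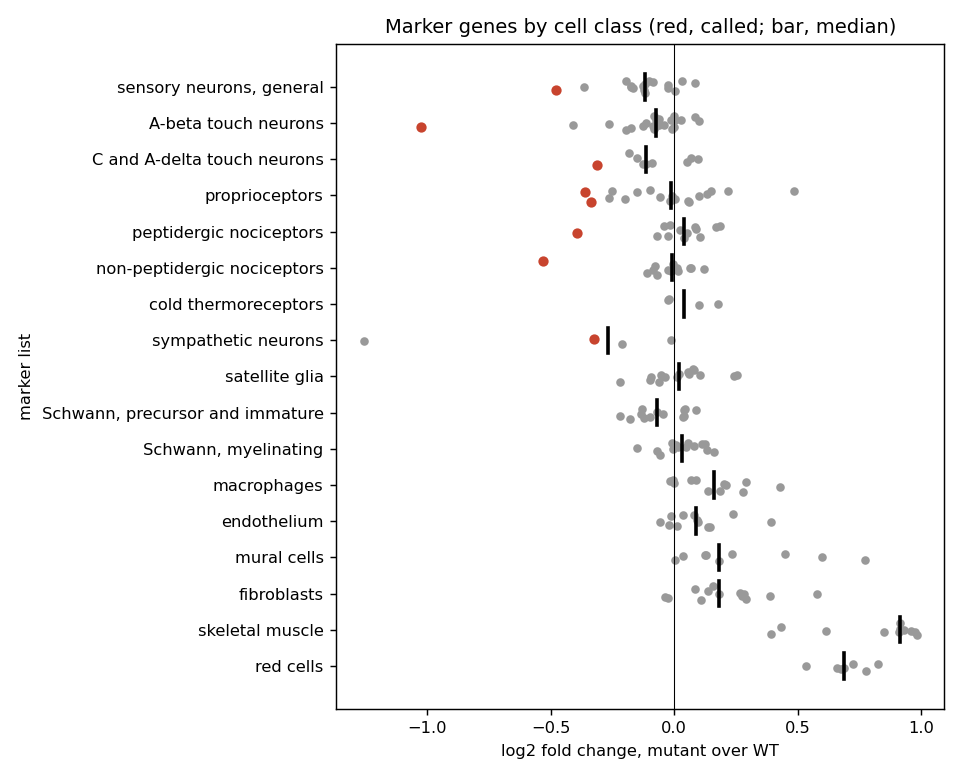
Log2 fold change of mutant over WT (horizontal axis) of the tested markers of 17 cell classes, 1 point per gene, red where called and grey otherwise, with the median as a bar. Called genes fall in sensory neuron and sympathetic lists, the glial lists centre near 0, and skeletal muscle and red cell markers lie to the right without a called gene.

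General markers of sensory neurons were lower for 14 of 17 genes, with Isl1 the only one called and a median log2 fold change of -0.118. WT library 1 decided this direction: its summed level was 30420 CPM against 19433 and 19821 CPM in the other WT libraries and 23922, 18603 and 19395 CPM in the mutant. Without WT library 1 the median was 0.014. Of the neurofilaments and tubulins 14 of 17 were lower (median -0.12), and without WT library 1 their median was 0.075. Nefm, the medium neurofilament, was at 8539 CPM in WT library 1, 3581 and 4034 CPM in the other WT libraries and 5393, 3568 and 3585 CPM in the mutant. Stmn2, a regulator of growing axons, had a log2 fold change of 0.00 (SE 0.114).

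Glial genes showed no called member in any list. Of all genes tested 0.318% were called, so 0 is the usual count for a list of this size, here and below. Satellite glia markers were higher for 9 and lower for 6 of 15 tested genes (median 0.018), and their summed level was 2364, 2025 and 2153 CPM in WT and 2193, 2211 and 2068 CPM in mutant libraries. Fabp7, a fatty acid carrier of satellite glia, had a log2 fold change of -0.04 (SE 0.113), Apoe one of -0.09 (SE 0.223) and Ptprz1 one of 0.02 (SE 0.123). Among markers of Schwann cell precursors and immature Schwann cells 8 of 13 were lower (median -0.068), and among those of myelinating Schwann cells 5 of 14 were lower (median 0.031). Both Schwann cell medians changed sign with single libraries, the first to 0.109 without WT library 3 and the second to -0.095 without WT library 2. Ngfr, L1cam and Pmp22 lay between -0.13 and 0.16 with SE of 0.114 or more. The study names Hes5, a Notch target of glia, which had 4.59, 4.42 and 4.13 CPM in WT and 5.11, 5.74 and 4.68 CPM in the mutant (log2 fold change 0.24, SE 0.157, unadjusted p = 0.169), and 0 of 24 genes of the Notch pathway were called. In whole ganglia fewer cells of a type and less RNA per cell cannot be told apart.

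Markers of cells outside the neural lineage varied widely between libraries of 1 genotype. All 11 tested skeletal muscle markers were higher in the mutant (median log2 fold change 0.915) and 0 were called, and the 3 most counted, Acta1, Myh8 and Mylpf, had an unadjusted edgeR p of 0.33, 0.46 and 0.33. The summed level of the list was 616, 157 and 1102 CPM in WT, 178, 2605.5 and 708 CPM in the mutant and 83.4 to 213 CPM in Isl1Cre/+. Without mutant library 2 the median turned to -0.51. All 7 tested red cell genes were also higher (median 0.69, and 0.12 without mutant library 2) with 0 called, at 2143, 899 and 1508 CPM summed in WT, 1213, 3981 and 2217 CPM in the mutant and 345 to 984 CPM in Isl1Cre/+. Macrophage (median 0.161), fibroblast (0.181), mural (0.182), endothelial (0.086) and cartilage (-0.024) lists held 0 called genes, as did markers of mast cells, bone, motor neurons, central glia and dividing cells. Macrophage and fibroblast medians turned to -0.108 and -0.087 without WT library 1 and mutant library 2.

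**Figure D4:**
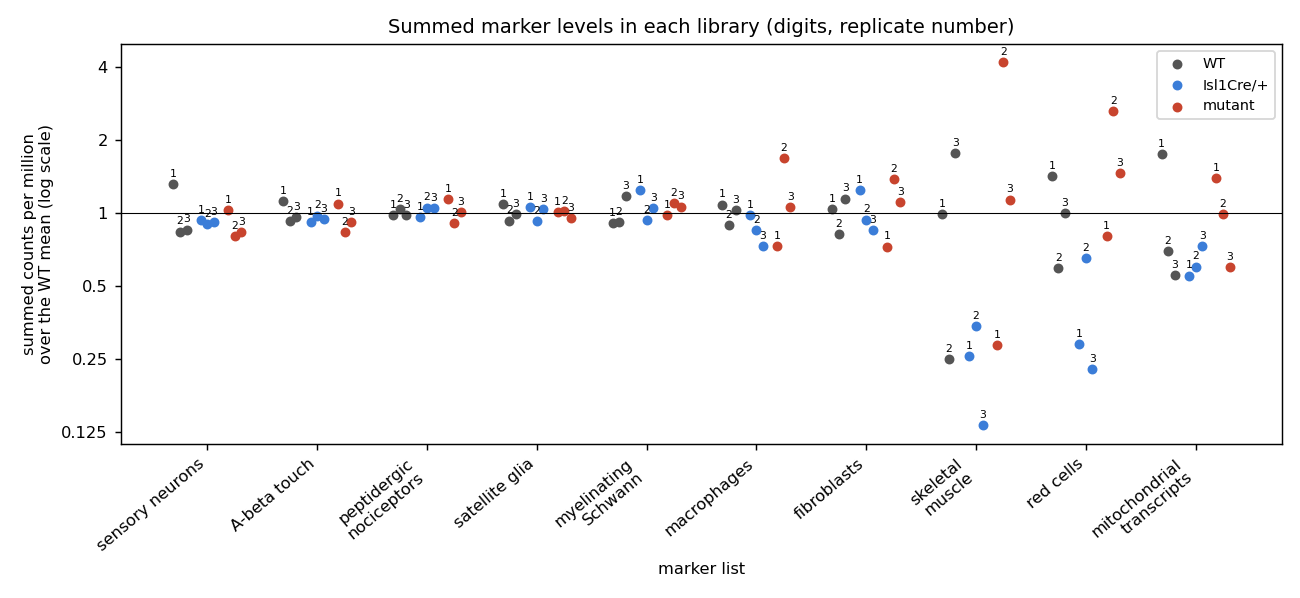
Summed CPM of marker lists in each library, divided by the WT mean of the list (vertical axis, log scale), with digits giving the replicate number and colours the genotype. Skeletal muscle markers range from 178 to 2605.5 CPM and red cell genes from 1213 to 3981 CPM among the mutant libraries, with mutant library 2 highest, and WT library 1 is highest for mitochondrial transcripts and sensory neuron markers.

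Among receptors, 2 of 12 acetylcholine, 1 of 20 glutamate and 1 of 5 opioid genes fell and 1 acetylcholine receptor gene rose, beside 0.258% and 0.0606% of all genes tested. Chrna3 and Chrnb4, nicotinic receptor subunits that assemble with each other, are neighbours on chromosome 9, and Chrna3 is also the called member of the sympathetic neuron list given above, whose part in its fall was not tested. Chrnb4 was at 6.14, 6.58 and 6.602 CPM in WT and 3.95, 4.98 and 5.25 CPM in the mutant (log2 fold change -0.45, SE 0.161, unadjusted p = 0.0258). Chrna3 was at 12.1, 11.5 and 12.7 CPM in WT and 9.36, 9.35 and 10.2 CPM in the mutant (log2 fold change -0.33, SE 0.11, unadjusted p = 0.0197). The libraries of the 2 genotypes did not overlap for either gene, and each kept its call in 3 of 6 fits that left out 1 library, with highest p of 0.0752 (Chrnb4, without WT library 2) and 0.0719 (Chrna3, without WT library 3). Chrm1, the M1 muscarinic receptor, rose from 5.72, 6.69 and 6.32 CPM to 8.01, 6.99 and 8.95 CPM (log2 fold change 0.35, SE 0.147, unadjusted p = 0.0455), a call kept in 1 of 6 fits and with unadjusted p = 0.166 without mutant library 3. Over the 12 tested acetylcholine receptor genes 7 were lower and 5 higher.

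Grik3, a kainate receptor subunit, was at 8.24, 9.41 and 8.86 CPM in WT, 7.90, 6.86 and 10.7 CPM in Isl1Cre/+ and 7.03, 5.17 and 7.14 CPM in mutant libraries (log2 fold change against WT -0.46, SE 0.162, unadjusted p = 0.0245). It was the 1 called gene among 20 tested glutamate receptor genes, 14 of which were lower (median -0.072). Grik3 lost its call without WT library 2 (unadjusted p = 0.0824), WT library 3 or mutant library 2, the last with a log2 fold change of -0.30. Oprd1, the delta opioid receptor, had 8.72 ± 0.709 CPM (SD, n = 3) in WT and 7.0 ± 0.617 CPM (SD, n = 3) in the mutant (log2 fold change -0.32, SE 0.133, unadjusted p = 0.0474), with a highest p of 0.177 without WT library 2. Of the 5 tested opioid genes 4 were lower (median -0.298), and the median was -0.058 without WT library 1. GABA and glycine receptors (15 tested), sodium channels (14), potassium and HCN channels (70) and calcium channels (21) held 0 called genes, with medians of 0.001, -0.001, -0.001 and -0.095.

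Slc12a5, the neuronal chloride extruder KCC2, fell with the Cre allele as well. It was at 5.99, 4.32 and 4.10 CPM in WT, 3.71, 3.25 and 2.72 CPM in Isl1Cre/+ and 2.71, 2.51 and 3.73 CPM in mutant libraries. Every library with the Cre allele was below every WT library, and the log2 fold change against WT was -0.69 in the mutant (SE 0.242, unadjusted p = 0.0237) and -0.56 in Isl1Cre/+ (SE 0.201, unadjusted p = 0.0262). Without WT library 1, the highest, the mutant had -0.50 with unadjusted p = 0.0745. Uts2b, the precursor of a urotensin-related peptide, was at 10.5, 11.0 and 10.2 CPM in WT and 7.67, 8.40 and 5.58 CPM in the mutant (log2 fold change -0.55, SE 0.168, unadjusted p = 0.0122). The Isl1Cre/+ libraries held both lower and higher values than WT (7.69, 6.11 and 12.9 CPM).

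Of the transcription factors and RNA-binding proteins called, Tbx3 and Nova1 are the better known. Tbx3, a T-box factor that often acts as a repressor, was at 41.2, 36.0 and 32.6 CPM in WT, 29.2, 30.7 and 33.6 CPM in Isl1Cre/+ and 30.7, 26.1 and 25.2 CPM in mutant libraries. Its log2 fold change of -0.42 (SE 0.122, unadjusted p = 0.0102) was called in all 18 refits under the same call rule. Tbx3os2, a noncoding gene beside it on chromosome 5, also fell, with 4.59, 2.87 and 2.61 CPM in WT and 2.48, 1.60 and 1.85 CPM in the mutant (log2 fold change -0.76, SE 0.302, unadjusted p = 0.0384). WT library 1 was the highest for both, and without it Tbx3 had -0.32 (unadjusted p = 0.0228) and Tbx3os2 -0.47 (unadjusted p = 0.134).

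Nova1, a neuronal splicing regulator, had 17.1 ± 0.979 CPM (SD, n = 3) in WT, 12.5 ± 0.347 CPM (SD, n = 3) in Isl1Cre/+ and 13.4 ± 0.869 CPM (SD, n = 3) in the mutant, so it fell in both genotypes with the Cre allele (log2 fold changes -0.44 and -0.36, unadjusted p = 0.00156 and 0.012). Bhlhe41, a repressor of the circadian clock, rose by 0.34 (SE 0.139, unadjusted p = 0.0443), with overlapping libraries. The zinc finger genes moved in opposite directions: Zfp951 rose from 4.55, 4.32 and 4.17 CPM to 5.75, 6.04 and 5.58 CPM (log2 fold change 0.41, SE 0.142, unadjusted p = 0.021), and Zfp39 fell by 0.29 on the log2 scale (SE 0.106, unadjusted p = 0.0284).

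Of the 12 tested TALE homeodomain genes, the family of Meis2, 8 were lower and Meis2 was the 1 called. Meis1, a close relative, was at 18.4, 21.2 and 21.4 CPM in WT and 22.6, 17.8 and 20.3 CPM in the mutant, with a 95% interval of the log2 fold change from -0.29 to 0.28. The interval was -0.53 to 0.12 for Meis3, and Pknox2 had a log2 fold change of -0.05 (SE 0.0871). Of 24 tested Hox genes, whose proteins share partners with Meis2, 12 were lower, 12 higher and 0 called (median 0.016).

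The next called genes act in adhesion, trafficking or the cytoskeleton. St8sia4, Chodl, Sorcs3, Hap1 and Myo16 stand in none of the gene lists and are placed here by their known roles alone. Pcdh11x, a protocadherin on the X chromosome, was at 23.6, 22.2 and 23.5 CPM in WT, 14.9, 16.8 and 23.0 CPM in Isl1Cre/+ and 18.6, 17.7 and 15.02 CPM in mutant libraries (log2 fold change -0.43, SE 0.111, unadjusted p = 0.00544). Its call held in the fit that included Y-linked counts. It was the 1 called gene among 63 protocadherins tested (median -0.026), while 0.258% of all genes tested fell. Against Isl1Cre/+, 5 of the 63 were called, all lower, beside 1.67% of all genes tested called in either direction. There 47 were lower and 16 higher (median -0.102). Between Isl1Cre/+ and WT 44 were higher and 19 lower (median 0.072), and 2 rose. Both comparisons share the Isl1Cre/+ libraries, so neither median supports the other. The study reports several protocadherins as lower in the mutant than with the Cre allele alone. St8sia4, which adds polysialic acid to the adhesion molecule NCAM, was at 40.1, 45.5 and 45.7 CPM in WT and 38.8, 30.1 and 32.9 CPM in the mutant (log2 fold change -0.37, SE 0.116, unadjusted p = 0.0147), with unadjusted p = 0.0746 without mutant library 2. Chodl, a lectin-like membrane protein, fell by 0.35 (SE 0.12, unadjusted p = 0.021).

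Sorcs3, a sorting receptor of the Vps10 family, was at 18.1, 15.3 and 15.2 CPM in WT and 14.1, 11.7 and 10.8 CPM in mutant libraries (log2 fold change -0.40, SE 0.141, unadjusted p = 0.023). Syt17, an atypical synaptotagmin of neurite traffic, was at 15.3, 15.7 and 14.7 CPM in WT and 10.4, 10.6 and 13.7 CPM in the mutant (log2 fold change -0.40, SE 0.137, unadjusted p = 0.0212). Neither gene overlapped between the genotypes, and both kept their calls in 3 of 6 fits, with highest p of 0.083 (Sorcs3, without mutant library 3) and 0.0733 (Syt17, without mutant library 2). Hap1, a huntingtin-associated protein of axonal transport, was at 41.7, 29.9 and 26.5 CPM in WT and 24.96, 24.02 and 25.6 CPM in the mutant. Its log2 fold change of -0.40 (SE 0.166, unadjusted p = 0.0471) was -0.18 without WT library 1 (unadjusted p = 0.0677), the library in which Hap1 was highest.

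Tuba8, a minor alpha-tubulin, was at 4.37, 3.61 and 4.38 CPM in WT, 5.45, 3.54 and 5.22 CPM in Isl1Cre/+ and 2.86, 3.46 and 2.59 CPM in mutant libraries (log2 fold change against WT -0.47, SE 0.199, unadjusted p = 0.0481). The other 16 neurofilament and tubulin genes were not called. Myo16, an unconventional myosin of neurons, fell by 0.30 (SE 0.123, unadjusted p = 0.0449) and kept its call in 1 of 6 fits. Its log2 fold change was -0.20 without mutant library 2 (unadjusted p = 0.148). Among 56 genes of vesicle release 39 were lower and Syt17 was called, among 45 synaptic adhesion genes 36 were lower and 0 were called, and their medians of -0.046 and -0.060 were 0.020 and -0.007 without WT library 1 and mutant library 2. Semaphorins and plexins (31 tested), Eph, Slit and netrin genes (36) and classical cadherins (17) held 0 called genes.

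Pde4a, Pde11a, Plcd1, Lrp2 and Creg2, which are enzymes, an uptake receptor and a secreted protein, stand in none of the gene lists. They are grouped here by their known roles alone. Pde4a and Pde11a, phosphodiesterases that break down cyclic nucleotides, fell by 0.36 and 0.32 on the log2 scale (SE 0.13 and 0.114, unadjusted p = 0.0266 and 0.023). Plcd1, a phospholipase C, rose by 0.33 (SE 0.135, unadjusted p = 0.0427). Lrp2, the endocytic receptor megalin, rose from 4.44, 4.74 and 4.24 CPM to 5.98, 5.47 and 5.87 CPM (log2 fold change 0.37, SE 0.143, unadjusted p = 0.0356). Creg2, a secreted glycoprotein, fell by 0.33 (SE 0.12, unadjusted p = 0.0264). Exons of other genes lie opposite 15.1% of the exonic bases of Creg2, 16.3% of those of Tuba8, 19.1% for Bhlhe41, 19.2% for Gm10069 and 11.4% for Zfp39, and strand use in counting is not stated, so reads of such pairs cannot be separated. Within this group, Pde4a kept its call in 3 of 6 fits that left out 1 library, and Pde11a, Plcd1, Lrp2 and Creg2 in 2.

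Fmo2, a flavin monooxygenase, was at 3.61, 4.0 and 3.86 CPM in WT and 4.06, 8.63 and 6.20 CPM in mutant libraries. It was highest in mutant library 2, where muscle and red cell markers were highest too, and its log2 fold change of 0.72 (SE 0.271, unadjusted p = 0.0314) became 0.44 without that library (unadjusted p = 0.101). The part of other cells in this rise was not tested.

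Noncoding and poorly described genes supplied the rest. A230077H06Rik was at 10.8, 10.1 and 13.1 CPM in WT, 12.2, 9.87 and 10.6 CPM in Isl1Cre/+ and 7.86, 8.63 and 6.77 CPM in mutant libraries, below both controls in every library (log2 fold change against WT -0.55, SE 0.155, unadjusted p = 0.00872). It starts beside Vstm2b on the other strand of chromosome 7, and exons of each overlap the other over 4.25% and 8.08% of their exonic bases. Gm10250, a processed pseudogene, was at 5.496, 3.04 and 3.79 CPM in WT and 2.63, 2.74 and 2.67 CPM in the mutant (log2 fold change -0.62, SE 0.253, unadjusted p = 0.0433), and had -0.35 without WT library 1 (unadjusted p = 0.132). As a near copy of another gene it may share reads with it.

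The antisense gene 9530036M11Rik was at 2.67, 2.62 and 2.81 CPM in WT and 1.84, 1.90 and 1.97 CPM in the mutant (log2 fold change -0.50, SE 0.2, unadjusted p = 0.0381). Gm10069, also antisense, was at 3.91, 4.39 and 4.62 CPM in WT and 2.89, 3.50 and 3.04 CPM in the mutant (log2 fold change -0.45, SE 0.179, unadjusted p = 0.0368), and Gm2115 fell by 0.29 (SE 0.0933, unadjusted p = 0.0172). The call of 9530036M11Rik was lost in all 6 fits that left out 1 library, with log2 fold changes of -0.53 to -0.47, that of Gm10069 in 4 and that of Gm2115 in 3. Gm42418 rose from 1353, 594 and 827 CPM to 1631, 1754 and 1548 CPM (log2 fold change 0.83, SE 0.275, unadjusted p = 0.0181). Its exonic bases lie to 99.5% opposite an annotated ribosomal RNA gene, so its reads cannot be told apart from those of that gene. Of the fits that left out 1 library, the one without WT library 3 lost the call (unadjusted p = 0.0564).

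**Figure D5:**
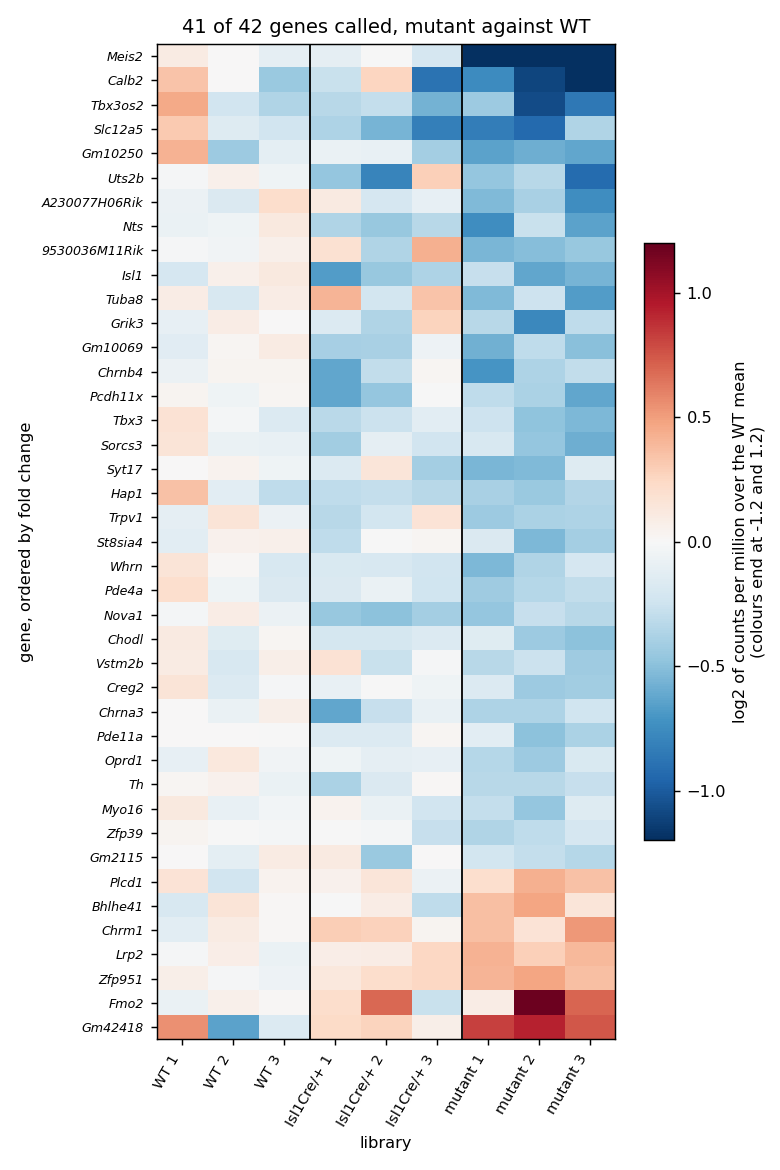
Log2 of CPM over the WT mean (colour, ending at -1.2 and 1.2) of all but 1 of the 42 called genes (rows, ordered by fold change) in the 9 libraries (columns). In the mutant columns 34 genes are blue and 7 red. Isl1, Nova1 and Slc12a5 are blue in all 3 Isl1Cre/+ columns, as are further called genes, among them Nts, Chodl, Sorcs3 and Chrna3. A230077H06Rik, Tuba8 and 9530036M11Rik stay near or above the WT mean in 2 or more Isl1Cre/+ columns.

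The comparison with Isl1Cre/+ separated these genes further. Between mutant and Isl1Cre/+ 221 genes were called (1.67% of genes tested), and between Isl1Cre/+ and WT 185 (1.4%). The 3 comparisons share libraries pairwise, so an overlap between any 2 of them has no independent support, and the values are given side by side. Of the 42 genes, 12 were called in the same direction against Isl1Cre/+. Among them, Meis2, Calb2, A230077H06Rik, Gm10250, 9530036M11Rik, Tuba8, Vstm2b and Creg2 fell, and Plcd1, Bhlhe41 and Gm42418 rose. For Tuba8 the log2 fold change was -0.67 against Isl1Cre/+ (SE 0.22, unadjusted p = 0.0171) and -0.47 against WT. For Calb2 it was -0.80 (SE 0.318, unadjusted p = 0.0384) and -1.03, and for Bhlhe41 0.40 (SE 0.132, unadjusted p = 0.0176) and 0.34. Between the controls each of the 12 had a log2 fold change of 0.21 or less in size, none called.

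Isl1, Nova1 and Slc12a5 were the 3 genes called both in the mutant and in Isl1Cre/+ against WT, and 0 of these was called between mutant and Isl1Cre/+, where the log2 fold changes were 0.01, 0.10 and -0.12 (SE 0.113, 0.0856 and 0.226). Of the 42 genes, 39 had the same direction in Isl1Cre/+ against WT and 40 in mutant against Isl1Cre/+. The remaining 27 genes were called in mutant against WT alone, which does not show that the Cre allele left them unchanged. Among them, Chrna3 had -0.30 in Isl1Cre/+ against WT (SE 0.15, unadjusted p = 0.0835) and -0.02 in mutant against Isl1Cre/+ (SE 0.143), and Pcdh11x had -0.33 (SE 0.161, unadjusted p = 0.078) and -0.09 (SE 0.169). Trpv1 and Grik3 had the opposite order, with -0.10 and -0.05 in Isl1Cre/+ against WT and -0.28 (SE 0.125, unadjusted p = 0.0588) and -0.39 (SE 0.201, unadjusted p = 0.0878) in mutant against Isl1Cre/+. Tbx3 lay between, at -0.22 and -0.19 (unadjusted p = 0.0739 and 0.0917). Most of the calls between mutant and Isl1Cre/+ were genes that rose (186 of 221), and 10 of 11 tested skeletal muscle markers and 7 of 7 red cell genes were among them, with medians of 2.96 and 2.06. The summed levels in Isl1Cre/+ given above reach no higher than 213 CPM for muscle and 984 CPM for red cells, and their part in these calls was not tested.

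Of the genes the study names for its RNAseq, 10 were called against WT. The other 7 were not: Adgrg3 (-0.32), Gm20163 (-0.30), Grid1 (-0.25), Lypd6 (0.20), Hes5 (0.24), Rps21 (0.24) and Mrps28 (0.25), with edgeR p between 0.0518 and 0.169. Against Isl1Cre/+, 5 of these 7 were called: Grid1 (-0.28), Lypd6 (0.29), Rps21 (0.33), Mrps28 (0.35) and Hes5 (0.52), while Adgrg3 (-0.30) and Gm20163 (-0.25) were not. These genes were chosen by the study on the same libraries, so their direction is not independent evidence. The 10 largest log2 fold changes of any gene, whatever the p, included several genes that were high in 1 library. Ckmt2, Cox6a2, Pgam2 and Myoz1 of skeletal muscle were higher by up to 1.35, with mutant library 2 highest, Slc6a2 and Dbh of noradrenergic neurons were at -1.44 and -1.26 with WT library 2 highest, Xist at 1.27 followed the sex of the embryos, Gpr17 (-1.22) was high in WT library 1, Gm47171 (1.11) was high in mutant library 2, and only Meis2 was called.

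Called genes were spread over the genome. They lay on 17 chromosomes, with at most 5 (of 999 tested) on chromosome 7. Chromosome 2, which carries the floxed Meis2, held 4 of 1040 tested genes: Lrp2 at 69424340 to 69586065, Pde11a at 75989141 to 76338774, Meis2 at 115863064 to 116065839 and Slc12a5 at 164960802 to 164999731. Chromosome 13, which carries the Cre allele, held Isl1 alone (of 492 tested).

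Meis proteins bind the core letters TGACAG. In the RefSeq promoter table for GRCm38.p6 (250 bases before to 50 after each transcript start), 33 of the 42 called genes had an entry, and 7 of these (21.2%) held TGACAG on either strand in at least 1 promoter. The share was 19.0% of the 10242 tested genes with an entry and 21.6% of all 27025 genes, and no difference between these shares was tested. The 7 genes were Uts2b, A230077H06Rik, 9530036M11Rik, Chodl and Pde4a, which fell, and Plcd1 and Zfp951, which rose. The promoters of Uts2b and A230077H06Rik are shown because these 2 kept their calls in every fit that left out 1 library. Capitals mark TGACAG, both are on the reverse strand and read 5′ to 3′, at chr16:27370240-27370489 (the 250 bases before the start of Uts2b) and chr7:40898275-40898574 (A230077H06Rik).
Uts2b: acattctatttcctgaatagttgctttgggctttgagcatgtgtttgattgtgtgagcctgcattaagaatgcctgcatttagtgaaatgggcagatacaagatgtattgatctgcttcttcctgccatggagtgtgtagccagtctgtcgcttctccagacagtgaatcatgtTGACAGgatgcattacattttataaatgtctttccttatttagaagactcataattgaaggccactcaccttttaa
A230077H06Rik: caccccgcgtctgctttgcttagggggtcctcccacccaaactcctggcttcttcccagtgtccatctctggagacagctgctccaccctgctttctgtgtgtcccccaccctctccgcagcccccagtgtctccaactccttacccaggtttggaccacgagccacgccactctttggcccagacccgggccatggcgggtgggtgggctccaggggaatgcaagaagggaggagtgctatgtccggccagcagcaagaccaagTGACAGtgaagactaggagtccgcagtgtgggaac
A match of these letters is a description of the sequence and not a site of binding, and no binding was measured in these samples.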

How the data were processed

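RNA-seq of DRG from E18.5 embryos was measured in 9 libraries of 3 genotypes, each taken from its label. The authors extracted RNA, selected poly(A) RNA, prepared CORALL libraries with molecular identifiers, aligned reads with STAR 2.7.10 to mm10 (GRCm38), removed duplicates and counted reads per gene with HTSeq 0.6. The annotation release and the strand option are not given in the sources used here. The deposited counts are whole numbers per gene without normalization. The table also holds the authors' own limma results for each pair of genotypes (fold changes, mean expression, statistics and p-values), which were not used.

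Genes that reached 100 counts in any library were normalized by TMM and fitted for each pair of genotypes with edgeR 4.0.16 in R 4.3.3, tested two-sided by quasi-likelihood, and adjusted after Benjamini-Hochberg over 13200 genes. A gene was called at a fold change of at least 1.2 and p under 0.05. Libraries held 23854607 to 29103444 counts. Of 55247 identifiers, 55154 matched GENCODE M21, which gave positions and overlaps, and 15 symbols turned into dates were restored. The procedure was tested on simulated data.

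The members and gene lists were chosen with earlier results of these data known, and families given by a shared start of their symbols were matched after the table was seen. Named are Meis2 and Isl1, all called genes (each library for the 24 with the largest change), the genes the study names, called and most counted list members (8 in sensory classes, otherwise 3, of which some lists name fewer here), genes called against both controls, and the 10 largest differences. Meis1, Meis3 and Dbh were chosen after their values were seen. Some genes that this rule names are not reported here. Alternatives were DESeq2 1.42.0 (size factors, Wald test), library size only, other filters, limma 3.58.1 (voom, quality weights), robust fitting, all genotypes in 1 fit, the replicate block, each library left out, other call rules and, added after seeing the data, a covariate for Y-linked counts.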

Additional observations from a re-analysis of the deposited data

How the results depend on the processing

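The number of genes called between mutant and WT was 42 and stayed within 1.5 times of it with DESeq2's size factors, library size only, at least 100 counts in every library, the DESeq2 Wald test, limma voom, robust fitting, all genotypes in 1 fit, no fold requirement and Y-linked counts as a covariate (34 to 55). It was 408 without a filter on low counts, 228 by limma voom with quality weights, 182 without WT replicate 1 and mutant replicate 2, 7 at a fold change of 1.5 and 1 by adjusted p, the last 2 by construction. For the others the cause was not tested. A like number did not mean the same genes. With Y-linked counts as a covariate 26 of the 42 genes kept their call, and with the replicate block 25 did. Leaving out 1 library gave 40 to 132 genes for mutant against WT, 167 to 407 for mutant against Isl1Cre/+ and 102 to 340 for Isl1Cre/+ against WT. With the call rule unchanged, Meis2 and Isl1 kept direction and call in all 18 refits, but the adjusted p of Meis2 passed 0.05 in neither the replicate block (0.189) nor the fit with Y-linked counts (0.0521), nor without WT replicate 2 or any 1 mutant replicate (0.0699 to 0.195), none of the 49 genes that were called or named by the study reversed, and 7 of the 42 called genes kept their call in every one of these refits that tested them. With the replicate block 31 genes were called between mutant and WT (177 and 236 in the other comparisons), but the numbers do not pair libraries: deviations of same-numbered WT and mutant libraries correlated at 0.060, -0.595 and 0.380 across genes. Depth limits the precision of genes at a few CPM.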
